A study of Sus scrofa with 6 samples.

Results

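The microRNAs miR-221 and miR-222 were followed in the liver of newborn male piglets of the Large White (LW) and Erhualian (EHL) breeds. The members were the 2 rows of the deposited table that carry the names ssc-miR-221 and ssc-miR-222, out of 236 rows with a pig miRNA name and 336 rows in all. Liver RNA was measured on 6 single-colour microarrays, 3 for each breed. The piglets were purebred, and the RNA of 2 littermates was pooled for each array, so that 3 litters and 6 piglets stood behind each breed. Per the study's methods the piglets came from 2 farms near each other, and the link of farm to breed is not given in the sources used here, so that breed and farm cannot be told apart. The pools leave no measure of the spread between single piglets. The values are fluorescence intensities without a unit, background-subtracted and normalized by the authors, and are called signals here.

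MicroRNAs are short RNAs that bind messenger RNAs and lower their translation or stability, and the seed near the 5′ end is the stretch that does most to choose the target. MiR-221 and miR-222 have the same seed and are known to be made from one primary transcript. In many cell types they are known to repress the cell cycle inhibitor p27 (CDKN1B) and the receptor KIT, and in liver they are best known for their high levels in hepatocellular carcinoma.

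The forward primers that the study used for RT-qPCR of the pair are shown because they let the shared and the differing bases be seen. They are written as DNA, with the seed (bases 2 to 8) in capitals.
miR-221: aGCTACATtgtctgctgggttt
miR-222: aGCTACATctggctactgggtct
The primer of miR-221 has 22 bases with a GC content of 45.5%, and that of miR-222 has 23 bases with 52.2%. The first 8 bases are the same in both, and after them the longest shared run is CTGGGT, at bases 15 to 20 of miR-221 and 16 to 21 of miR-222. In a global alignment, 19 of 23 columns are identical. Of the 18 miRNA primers in the study's list, these 2 carry this seed. The sequences of the array probes were not used here, and whether a probe of one member also bound the other was not tested. In the Sscrofa11.1 gene table, MIR221 and MIR222 lie under 10 kb apart on chromosome X.

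For miR-221 every EHL array lay below every LW array, while for miR-222 the arrays of the breeds overlapped. The signal of miR-221 was 547, 320 and 387 on LW arrays 1, 2 and 3. On EHL arrays 1, 2 and 3 it was 203, 217 and 298. The highest EHL array stayed below the lowest LW array, with the narrowest gap between EHL array 3 and LW array 2. LW had a mean signal of 418 ± 117 and EHL of 239 ± 51.3 (mean ± SD of n = 3 arrays), or 8.67 ± 0.39 and 7.88 ± 0.30 as log2.

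The log2 difference of miR-221, EHL minus LW, was -0.79 (standard error 0.30, 95% interval -1.46 to -0.12), a signal 1.73-fold higher in LW. In the limma fit over the 109 named miRNAs listed on 2 or more arrays in both breeds, its unadjusted p was 0.0253 and its adjusted p was 0.291. It did not pass the threshold of 0.15 on the Benjamini-Hochberg adjusted p. The study's methods use a false discovery rate of 15% for the miRNA arrays with another procedure, SAM. In the limma fit 1 of 109 miRNAs, or 0.917%, passed, and it was higher in EHL. At an unadjusted p under 0.05, 5 of 109 were lower in EHL, or 4.59%, and miR-221 was 1 of them. Of the 96 named miRNAs with a value on all 6 arrays, 7 had every EHL array below every LW array, or 7.29%, and miR-221 was 1 of these. The exact two-sided permutation test gave p = 0.1, the smallest that 3 arrays against 3 can give. In a bulk sample, fewer cells of a type and less RNA per cell cannot be told apart.

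The call on miR-221 turned on how the arrays were weighted. With weights estimated by limma from all 109 tested miRNAs, the adjusted p was 0.206, and 3 miRNAs, or 2.75%, were called lower in EHL without miR-221 among them. With weights estimated from the 96 miRNAs on all 6 arrays, a setting chosen once the data were known, the adjusted p was 0.142, and 7 miRNAs, or 6.42%, were called lower with miR-221 among them. In that setting EHL array 1 had the lowest weight, 0.455, and LW array 3 the highest, 2.07.

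The signal of miR-222 was 702, 310 and 341 on LW arrays 1, 2 and 3. On EHL arrays 1, 2 and 3 it was 248, 502 and 315. LW array 1 was the highest of the 6 and EHL array 1 the lowest, and EHL array 2 lay above LW arrays 2 and 3. LW had a mean signal of 451 ± 218 and EHL of 355 ± 132 (mean ± SD of n = 3 arrays), or 8.72 ± 0.64 and 8.41 ± 0.52 as log2.

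The log2 difference of miR-222 was -0.31 (standard error 0.39, 95% interval -1.19 to 0.57), which did not exceed the array-to-array spread (adjusted p = 0.833 by limma). The exact two-sided permutation p was 0.6. Its sign rested on LW array 1, since the log2 difference without that array was 0.0634. Among the 109 tested miRNAs, the difference of miR-221 was the 8th lowest and that of miR-222 the 26th lowest. The median difference over the 109 was 0.0247, with 56 above and 53 below 0.

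**Figure D1:**
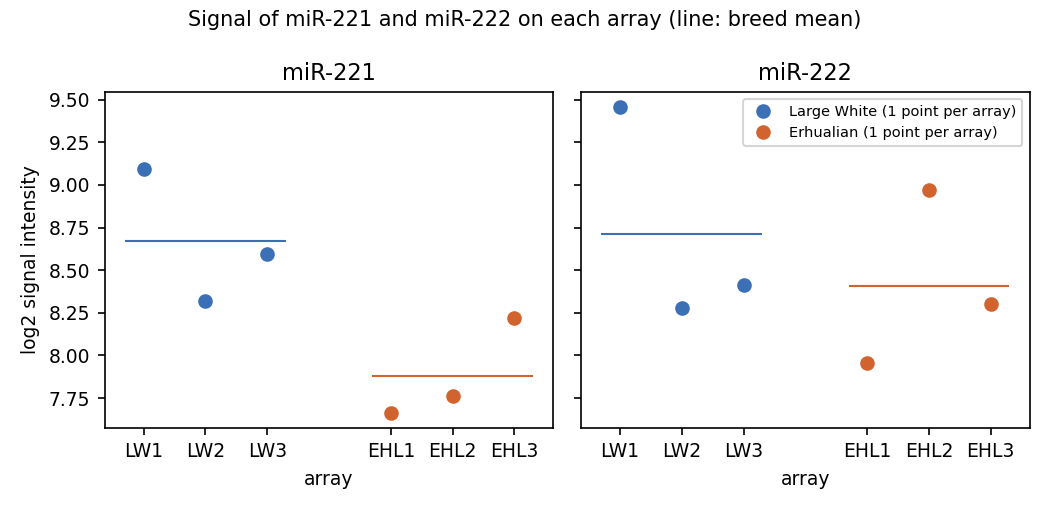
Log2 signal intensity of miR-221 and miR-222 on each of the 6 arrays, 1 point per array, with LW in blue, EHL in orange and a line at each breed mean. The EHL points of miR-221 all lie below its LW points, and those of miR-222 overlap, with LW array 1 at 9.46 and EHL array 2 at 8.97.

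**Figure D2:**
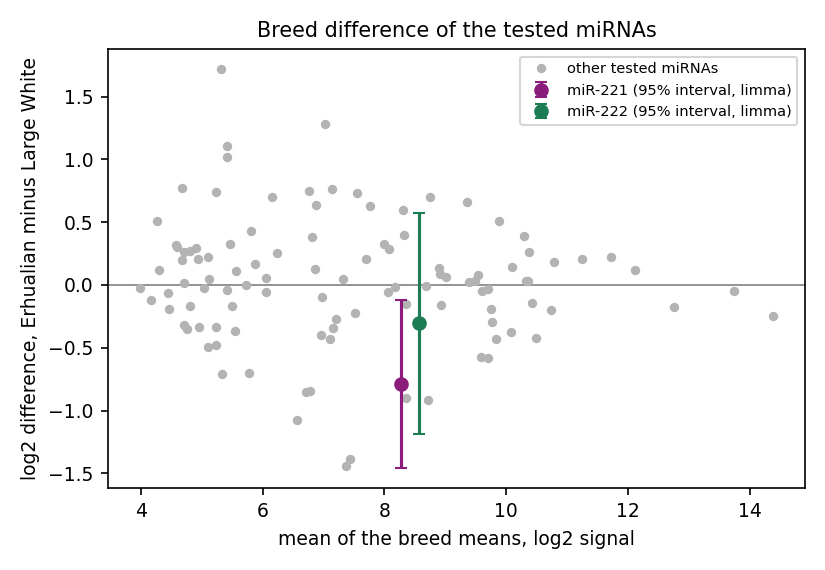
Log2 difference, EHL minus LW, of the 109 tested miRNAs against the mean of their breed means in log2 signal, with 95% intervals from limma for the pair and the other miRNAs in grey. The interval of miR-221 ends at -0.12, below 0, and that of miR-222 reaches from -1.19 to 0.57.

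The size of the difference also moved with the scaling of the arrays, while its sign did not. Centring each array on the median of the 96 miRNAs on all 6 arrays shifted the differences of these 96 by -0.0426. It took miR-221 to -0.83 and miR-222 to -0.35. Centring on the median of all named miRNAs listed on the array was also chosen once the data were known. It shifted the differences of the same 96 by -0.28 and took miR-221 to -1.07 and miR-222 to -0.59. The number of named miRNAs listed differs between the arrays, from 101 on EHL array 2 to 134 on LW array 2. After quantile normalization the log2 differences were -0.93 and -0.25.

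**Figure D3:**
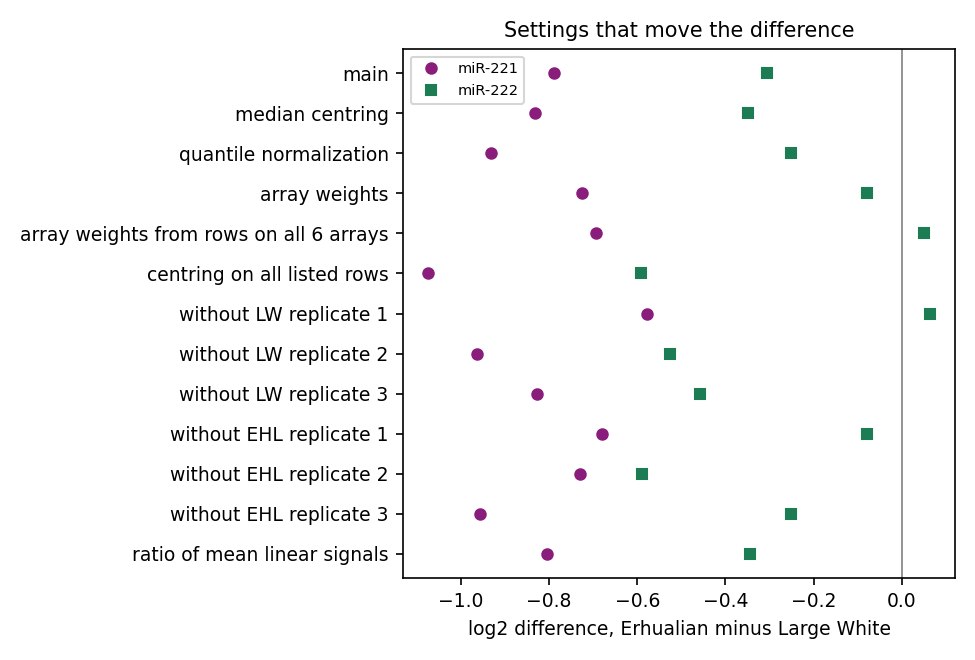
Log2 difference, EHL minus LW, of miR-221 (circles) and miR-222 (squares) in the fit as reported (main) and in the alternatives that change its size. MiR-221 lies between -1.07 and -0.58 in all of those shown, and miR-222 is above 0 without LW replicate 1 and with the array weights from the miRNAs on all 6 arrays.

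Since an array's overall brightness cancels in a ratio of signals from the same array, the ratio of miR-221 to miR-222 was compared across arrays. A ratio that differs between breeds would show unequal change of the pair, and the ratio by itself says nothing of the relative amounts of the 2 RNAs, because probes differ in brightness. The ratio was 0.779, 1.03 and 1.13 on LW arrays 1, 2 and 3. On EHL arrays 1, 2 and 3 it was 0.819, 0.432 and 0.946. EHL array 2 was the lowest by a wide margin, and the other 5 arrays lay between 0.779 and 1.13, with both breeds among them.

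On the log2 scale LW had a mean ratio of -0.0439 ± 0.28 and EHL of -0.53 ± 0.60 (mean ± SD of n = 3 arrays). The difference between breeds was -0.48 (standard error 0.38), beside a pooled SD within breeds of 0.47. The exact two-sided permutation p was 0.3, with 0.1 the smallest possible. Without EHL array 2 the difference was -0.14. The test thus shows neither an unequal nor an equal breed difference of miR-221 and miR-222.

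**Figure D4:**
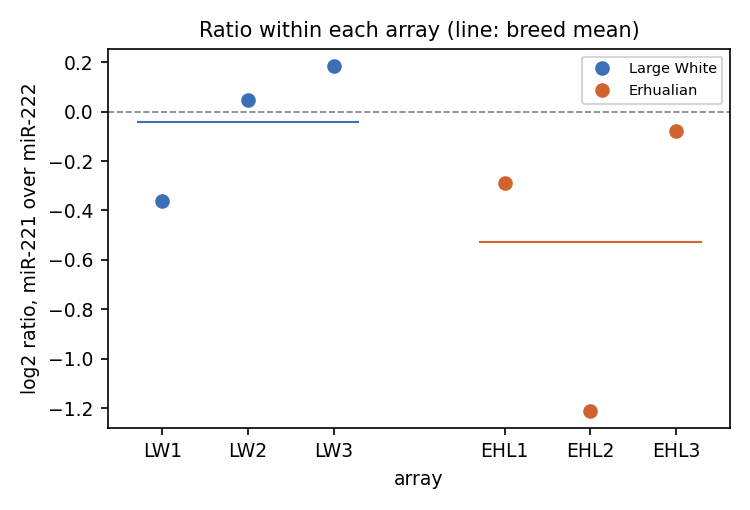
Log2 ratio of miR-221 over miR-222 within each of the 6 arrays, with LW in blue, EHL in orange, a line at each breed mean and a dashed line at 0. EHL array 2 stands at -1.21, and the other 5 arrays lie between -0.36 and 0.18.

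Across the 6 arrays the log2 signals of miR-221 and miR-222 had a Pearson's r of 0.579 (exact permutation p = 0.218, two-sided) and a Spearman's rho of 0.6 (exact permutation p = 0.242). This was the only relation tested, by both coefficients and in the alternatives given below, and none of its p-values was adjusted. Without LW array 1 and EHL array 1, the 2 arrays farthest from the median of miR-221, r was -0.797 over 4 arrays, so the positive relation did not hold without them. Leaving out both also narrows the range of miR-221. Of single arrays, the positive sign rested on LW array 1, since r was -0.0540 without it, while r was 0.395 without EHL array 1 and 0.918 without EHL array 2. After quantile normalization r over the 6 arrays was 0.300 (exact permutation p = 0.551). For the deviations from the breed means, r was 0.595. No scan or slide batch was given in the sources used here.

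The arrays of miR-222 were more spread out than those of most miRNAs of like signal. Its pooled SD within breeds was 0.58 on the log2 scale, against a median of 0.37 over the 20 miRNAs nearest to it in signal, 16 of which had a smaller SD. For miR-221 the SD was 0.35 and the median 0.45, with 7 of 20 smaller.

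Other pairs with neighbouring genes gave a scale for the spread of the ratio. The SD of the log2 ratio over the 6 arrays was 0.50 for miR-221 and miR-222, against a median of 0.57 over all 4560 pairs of the 96 miRNAs, of which 39.5% had a smaller SD. In the gene table, 31 pairs lie under 10 kb apart, and their median SD was 0.42. Of the 31, 25 were below the median of all pairs. The pair ranked 22 of 31 from the smallest SD. The smallest was 0.13, for miR-191 and miR-425-5p, followed by 0.18 for miR-191 and miR-425-3p and 0.24 for miR-181a and miR-181b. The largest was 1.01, for miR-24 and miR-27a. These SDs pool the breeds and so include any breed difference of the ratio, which was 1.55 for miR-24 and miR-27a. Within breeds the SD of that pair was 0.61, the largest was 0.94, for let-7e and miR-99b, and that of miR-221 and miR-222 was 0.47, again 22 of 31. Neighbouring genes here include pairs that are not known to share a transcript, since the table gives no strand. The 31 pairs are not independent, since some miRNAs are in several of them, as miR-191 is in those with the smallest SDs. MiR-24 was paired with both miR-27a and miR-27b, so its row can hold the product of genes at different places.

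**Figure D5:**
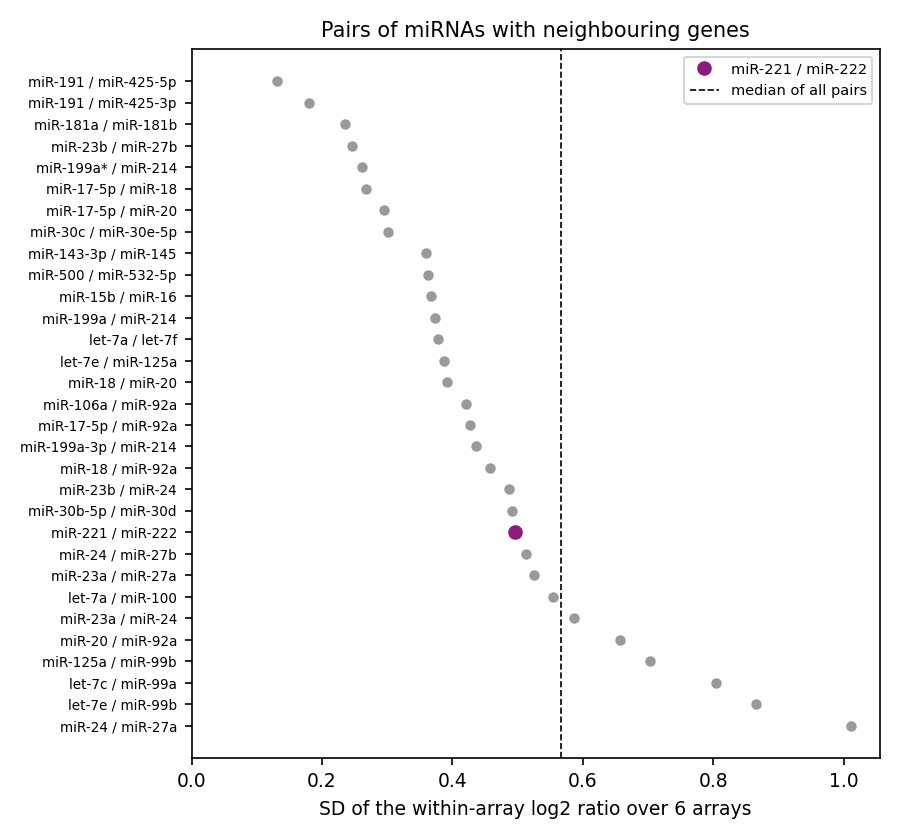
SD over the 6 arrays of the within-array log2 ratio for the 31 pairs of miRNAs whose genes lie under 10 kb apart, sorted, with the median of all 4560 pairs as a dashed line. The ratio of miR-221 and miR-222, in purple, has an SD of 0.50 and ranks 22.

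By Pearson's r over the 6 arrays, the 5 miRNAs most like miR-221 were miR-27b (0.758), miR-122 (0.736), miR-99a (0.734), miR-30e-5p (0.703) and miR-92a (0.692), out of 95 compared. Those most like miR-222 were miR-299 (0.886), miR-145 (0.850), miR-107 (0.751), miR-92a (0.738) and miR-199a (0.728). The 2 members ranked 12 in each other's lists, and miR-92a, of the miR-17 to miR-92 cluster, was in both. These r pool arrays of both breeds and so include the breed difference. For the deviations from the breed means, the 5 miRNAs named for miR-221 ranked 15, 34, 19, 25 and 20, and the highest r were those of miR-331-3p (0.994), miR-30d (0.974) and miR-199a (0.974). In the list of miR-222, miR-107 (0.966) and miR-145 (0.940) then ranked 1 and 2, miR-299 ranked 4, miR-199a 9 and miR-92a 16. MiR-222 ranked 33 for miR-221, and miR-221 ranked 21 for miR-222. All of these are descriptions of 6 arrays, with no test.

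The lists of miRNAs tied to cell growth were examined beside the pair. Of the 10 names in the proliferative list, 5 had a row, with 6 rows in all, and of the 5 tested, 0 were above and 5 below 0 in EHL, with a median difference of -0.17. Rows miR-18 and miR-20, left out by the exact match of names, were above 0, at 0.20 and 0.067. Over all 109 tested miRNAs, 53 were below 0. By limma, 0 of this list passed the adjusted threshold, beside 1 of 109 over all. The signal of miR-21, which is known to act against tumour suppressors, was 37, 347 and 249 on the LW arrays and 236, 107 and 22 on the EHL arrays. Its log2 difference was -0.84 (standard error 0.97, limma adjusted p = 0.807). That of miR-92a was -0.17 (standard error 0.28, adjusted p = 0.833). In the antiproliferative list 18 of 20 names had a row, and of 14 tested 4 were above and 10 below 0, with a median of -0.0523 and 0 past the threshold. Of its 13 rows on all 6 arrays, the breeds did not overlap for 2, against 18 of 96, or 18.8%, over all such miRNAs (11 higher and 7 lower in EHL). These were miR-378, with a log2 difference of 1.02 (standard error 0.32, adjusted p = 0.244), and miR-15b, with -0.43 (standard error 0.24, adjusted p = 0.518). The log2 difference of let-7f was -0.92 (standard error 0.49, adjusted p = 0.505), and that of miR-26a, the brightest of the list, was -0.0516 (standard error 0.25, adjusted p = 0.974).

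Markers of the cells a liver sample can hold were set beside the pair. The hepatocyte list was led by miR-122, with 28071, 18958 and 23800 on the LW arrays and 20649, 20007 and 18287 on the EHL arrays, and its row of miR-194 was blank on all 6 arrays. The summed signals of that list were 33001, 24963 and 28822 in LW and 28497, 24316 and 24137 in EHL, and were made up mostly of miR-122. Of the 3 tested, miR-122 was below 0, at -0.25, while miR-148a was at 0.15 and miR-192 at 0.12. The endothelial miR-126 was 2209, 4098 and 3436 in LW and 4524, 3110 and 3506 in EHL. Its log2 signal had a Pearson's r of -0.961 with miR-222, the lowest of the 95 miRNAs compared, and of -0.710 with miR-221, where it ranked 94. For the deviations from the breed means these were -0.957 and -0.794. The next lowest r with miR-222 were those of the hepatocyte miR-148a (-0.796) and miR-192 (-0.734), while miR-122 was at 0.670. This was noticed after the values were seen, and is given with no test.

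In the stellate and mesenchymal list, miR-199a* was the brightest row on each LW array and miR-214 on each EHL array. The sums of the list were 6889, 6999 and 5964 in LW and 5239, 7980 and 5600 in EHL, and 3 of 7 tested were above 0. Of its 7 rows on all 6 arrays, the breeds did not overlap for 2, beside the 18.8% over all such miRNAs. These were miR-143-3p, with a log2 difference of 0.60 (standard error 0.28, limma adjusted p = 0.443), and miR-199b*, with -0.58 (standard error 0.30, adjusted p = 0.505).

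The erythroid sums, led by miR-451, were 249, 124 and 159 in LW and 410, 78 and 85 in EHL, so that EHL array 1 stood above the others. Newborn liver is known to hold blood-forming cells. Of the leukocyte rows, miR-146a and miR-155 were blank on all 6 arrays and miR-142 was listed on EHL array 3 alone, at 12. A blank does not show that a miRNA was absent from the liver. Of the 5 muscle rows, 4 were blank on all 6 arrays, and for miR-133a-3p there were 3 arrays with signals, of 14 to 17. Of the neural rows, miR-124a was blank and miR-128 lay between 63 and 106. No tested marker passed the adjusted threshold by limma, and the part of these cells in the values of miR-221 and miR-222 was not tested.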

How the data were processed

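Small RNAs from 5 µg of total RNA per pool were hybridized to the arrays, and the Cy5 label was added after hybridization. The authors subtracted the background and normalized the signals by LOWESS, and the deposited values are linear intensity values as whole numbers with blank cells. The study ascribes undetected miRNAs to weak fluorescence. Its discussion adds that abundant miRNAs missed by the arrays differed in sequence from the database entries used for the probes. The exact limit for a blank is not given in the sources used here. The values were converted to log2 with no pseudocount, and EHL was compared with LW in R 4.3.3 with limma 3.58.1 (breed the only term). Blank cells were dropped from the fits and never imputed. Members and lists were chosen with earlier results of these data known. Named miRNAs were the pair, the 5 most alike to each, neighbouring pairs, and up to 4 examples per list (the 2 brightest and the 2 with the largest difference). Outside this rule, miR-15b, miRNAs high in the deviations from the breed means, and cell type markers that were blank or listed at low signal were named after their values were seen. The neighbour rule asked for the same strand, which the gene table does not give, so distance alone was used. List names were matched exactly, so that rows miR-18 and miR-20 did not count for miR-18a and miR-20a.

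SAM was recomputed with 20 relabellings of the arrays, in 2 versions. The first ranks each direction by itself. The second, with cut points against expected order statistics, was written after the output of the first had been seen, to come closer to the published procedure, when the first count differed from one obtained earlier from these data. The second differs from it too. Both are given, and the authors' SAM software was not run here. Array weights estimated from the miRNAs on all 6 arrays, and centring on all listed miRNAs, were likewise chosen once the data were known, and the weights in the knowledge that earlier work on these data had called miR-221 with weights of this kind. With an array left out, the same 109 miRNAs were fitted. Figures and list counts used Python 3.11.15, pandas 2.3.3, biopython 1.88 and matplotlib 3.10.9. The number of arrays limits the precision.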

Additional observations from a re-analysis of the deposited data

How the results depend on the processing

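Of 20 alternatives, 8 cannot move a log2 difference. That of miR-221 was below 0 in the other 12, and 1 of them, the array weights from the miRNAs on all 6 arrays, added after the data had been seen, took it past the threshold (-0.69, limma adjusted p = 0.142). Over the alternatives with a test, its adjusted p or q ran from 0.142 to 0.882. With 1 array left out it ran from -0.96 to -0.58. MiR-222 turned to 0.0508 with the same weights, and ran from -0.59 to 0.0634 with 1 array left out, above 0 without LW array 1; the cause was not tested. Pearson's r ran from -0.0540 to 0.918 with 1 array left out, and its sign was reversed without LW array 1. Without EHL array 2 its exact permutation p was past 0.05, at 0.0167, not adjusted for the number of arrays left out in turn. Quantile normalization took r to 0.300. Of 10 alternatives for the ratio, 2 cannot move its breed difference, which was below 0 in the other 8.

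Against 1 miRNA called by limma, the first SAM version called 3, all higher in EHL, with a q of 33.0% for miR-221, and the second, written after the first had been seen, called 1, with 37.2%. Neither called miR-221 or miR-222. Both are recomputations without the authors' software, so these q values do not stand for the outcome of the study's own procedure. The count was 7 with limma's array weights (4 higher, 3 lower) and 22 with the added weights (15 higher, 7 lower), 2 after quantile normalization, 2 with the LRS rows tested too, and 0 with centring on all listed miRNAs, where 9 had an unadjusted p under 0.05. With 1 array left out it ran from 0 to 19, the highest without EHL array 1 (13 higher, 6 lower).

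The deviations from the breed means were compared between the LW and EHL arrays that bear one number. Over 96 miRNAs r was -0.496, -0.0115 and -0.658 for numbers 1, 2 and 3, so none was positive. Deviations from the mean of so few arrays are tied to each other. These r therefore cannot tell whether arrays of one number shared a slide or a scan. With the replicate block limma called 0, with 8 at an unadjusted p under 0.05, and the log2 differences were unchanged, at -0.79 and -0.31. The ratio was -0.48 with the replicate block (exact sign-flip permutation p = 0.5).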
